A study of Homo sapiens with 2 samples.

Results

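The small nuclear RNAs (snRNAs) of the spliceosome are short, non-coding RNAs, and the 10 genes described here encode U4, U5, U11, U12 and U4atac. They are RNU4-1, RNU4-2, RNU5A-1, RNU5B-1, RNU5D-1, RNU5E-1, RNU5F-1, RNU11, RNU12 and RNU4ATAC. The genes were chosen by name, with the regions listed in these data already known, so the presence of a region over a gene is given as a description without a test. They make up 10 of 62663 genes annotated on the main chromosomes. A listed region overlapped 8 of the 10.

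R-loops, in which a nascent RNA pairs with its DNA template and displaces the other strand, were mapped with CUT&Tag. The cells, OMM2.3, are a long-established line from a human uveal melanoma. Both groups carried a V5-tagged RNASEH1_D210N, a catalytically inactive RNase H1 that binds hybrids without cleaving them and was brought in on a plasmid under hygromycin selection. A V5 antibody marked the bound DNA. The 2 groups, shCtrl (control hairpin) and shA3B (hairpin against A3B, the cytidine deaminase APOBEC3B, delivered by lentivirus under puromycin selection), had 1 library each. The labels do not say which A3B hairpin the shA3B library carried. The values came from 1 list of 562 regions in which the authors compared shA3B with shCtrl. Each line holds only coordinates, with no count, fold or direction. A region over a gene therefore says that the authors listed that place, and not in which library the signal was higher. There was no replicate, and the read depth behind a region is unknown. The list holds no expression values, so neither the A3B knockdown nor the cell type could be checked in it. Positions are on GRCh38.

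snRNAs assemble with proteins into the particles that remove introns from pre-mRNA. In the major spliceosome, U4 holds the catalytic U6 snRNA inactive until activation, and U5 positions the exons for joining. The minor spliceosome removes a rare class of introns with U11 and U12, which recognise the 5′ splice site and the branch site, and with U4atac, the counterpart of U4, while U5 serves both spliceosomes. RNA polymerase II transcribes all of these genes from compact promoters that have a proximal element bound by the SNAPc complex and a distal element that often holds an octamer for POU2F1. The transcripts are not polyadenylated, and they bind a ring of Sm proteins at a short U-rich site.

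The U4 genes are shown because a single region covered both of them. They differed at 4 of 141 positions. The sequences are read from GRCh38, in the direction of transcription, and the capitals mark the Sm site, searched as A, 4 to 6 T and G.
RNU4-1, chr12:120293097-120293237, minus strand: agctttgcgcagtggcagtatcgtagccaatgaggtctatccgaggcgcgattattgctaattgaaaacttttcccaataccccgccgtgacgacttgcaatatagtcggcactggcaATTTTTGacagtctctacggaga
RNU4-2, chr12:120291763-120291903, minus strand: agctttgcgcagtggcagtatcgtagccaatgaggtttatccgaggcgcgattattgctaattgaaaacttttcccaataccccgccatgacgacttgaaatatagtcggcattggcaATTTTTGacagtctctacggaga

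The Sm pattern was found in 10 of the 10 snRNA genes, with 2 matches in RNU4ATAC. It was not particular to them, as it also matched RNU2-1 and RNU2-2P. The U1 genes, RNU7-1 and RNU6ATAC had no match, which does not show that they lack such a site. The share of other genes with the pattern was not measured. RNU4-1 (ENSG00000200795.1, chr12:120293097-120293237) and RNU4-2 (ENSG00000202538.1, chr12:120291763-120291903) encode U4. They lie in tandem on the minus strand outside other genes, with 1193 bp between them. The region chr12:120290712-120293333 spanned both genes and all of the sequence between them. It was 2622 bp wide and ranked 17th by width among the 562 regions. Its midpoint lay 1144.5 bp downstream of the midpoint of RNU4-1 and 189.5 bp upstream of that of RNU4-2. It was thus centred near RNU4-2, and its edge lay 96 bp before the start of RNU4-1. The nearest protein-coding start, that of SIRT4, was 9079 bp from the start of RNU4-1.

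RNU5A-1 (ENSG00000199568.1, chr15:65296051-65296166) and RNU5B-1 (ENSG00000200156.1, chr15:65304677-65304792) encode U5 and lie on the plus strand with 8510 bp between them. RNU5A-1 is in an intron of PARP16, which runs on the other strand, and RNU5B-1 is outside other genes. In contrast to the U4 pair, each of these genes had a region of its own, and 7.03% of the sequence between them was covered. The region over RNU5A-1, chr15:65295968-65296689, was 722 bp wide, the narrowest of those over the snRNA genes. Its midpoint lay 220 bp downstream of the gene midpoint. The region over RNU5B-1, chr15:65304602-65305642, was 1041 bp wide with its midpoint 387.5 bp downstream. Both regions began shortly before the start, at 83 bp for RNU5A-1 and 75 bp for RNU5B-1.

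RNU5E-1 (ENSG00000199347.1, chr1:11908152-11908271), a further U5 gene, lies in an exon of an unnamed lncRNA gene on the same strand. Its region, chr1:11907772-11910007, was 2236 bp wide and ranked 30th. The region also contained the start of that lncRNA gene. The midpoint lay 678 bp downstream of the gene midpoint. The region ran from 380 bp before the start of RNU5E-1 across RNU5E-4P, a copy on the opposite strand whose symbol marks it as a pseudogene and whose start is 1775 bp away. It ended 80 bp before the start of that copy. The nearest protein-coding start, that of KIAA2013, was 18275 bp away.

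RNU5D-1 (ENSG00000200169.1, chr1:44731055-44731170) and RNU5F-1 (ENSG00000199377.1, chr1:44721786-44721902) were the U5 genes without a region. They lie on the minus strand with 9152 bp between them, none of it covered, and RNU5F-1 is in an intron of ARMH1. The nearest listed region was 790013 bp from RNU5D-1 and 799281 bp from RNU5F-1. Neither gene was thus close to a region under any of the rules tried. As the list gives listed places only, the signal at these genes in either library is unknown.

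The genes of the minor spliceosome each had a region. RNU11 (ENSG00000274978.1, chr1:28648600-28648733, plus strand) encodes U11. Its region, chr1:28647473-28649365, was 1893 bp wide with its midpoint 247.5 bp upstream of the gene midpoint. RNU4ATAC (ENSG00000264229.1, chr2:121530881-121531007, plus strand) encodes U4atac and lies in an intron of CLASP1. Its region, chr2:121529939-121531590, was 1652 bp wide with its midpoint 179.5 bp upstream. RNU12 (ENSG00000276027.1, chr22:42615244-42615393, plus strand) encodes U12 and lies in an intron of an unnamed protein-coding gene on the other strand. Its region, chr22:42615154-42616119, was 966 bp wide with its midpoint 318 bp downstream, and it also took in the 3′ end of CYB5R3.

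Protein-coding genes started close to these 3 genes, upstream and on the other strand. Distances are to the nearest annotated start. TAF12, a subunit of the general transcription factor TFIID, started 309 bp before RNU11. CLASP1, which encodes a microtubule-binding protein, had an annotated start 136 bp before RNU4ATAC. That start lies inside CLASP1, whose 5′ end is at chr2:121649476. POLDIP3 started 282 bp before RNU12. The regions over RNU11 and RNU4ATAC contained the TAF12 and CLASP1 starts, so a region of the protein-coding promoter and a region of the snRNA gene cannot be told apart there. Starts of lncRNA genes on the plus strand also lay inside, that of CLASP1-AS1 at RNU4ATAC and that of an unnamed gene at RNU11. At RNU12 the list held separate regions. One of 1185 bp, chr22:42613885-42615069, contained the POLDIP3 start and ended 175 bp before RNU12, and the other covered RNU12. None of the 7 genes grouped with the major spliceosome had a protein-coding start this close, the nearest being that of ARMH1 at 1883 bp from RNU5F-1. A second region near RNU11, 560 bp wide and 5303 bp upstream of it, contained starts of TAF12 and TAF12-DT.

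**Figure D1:**
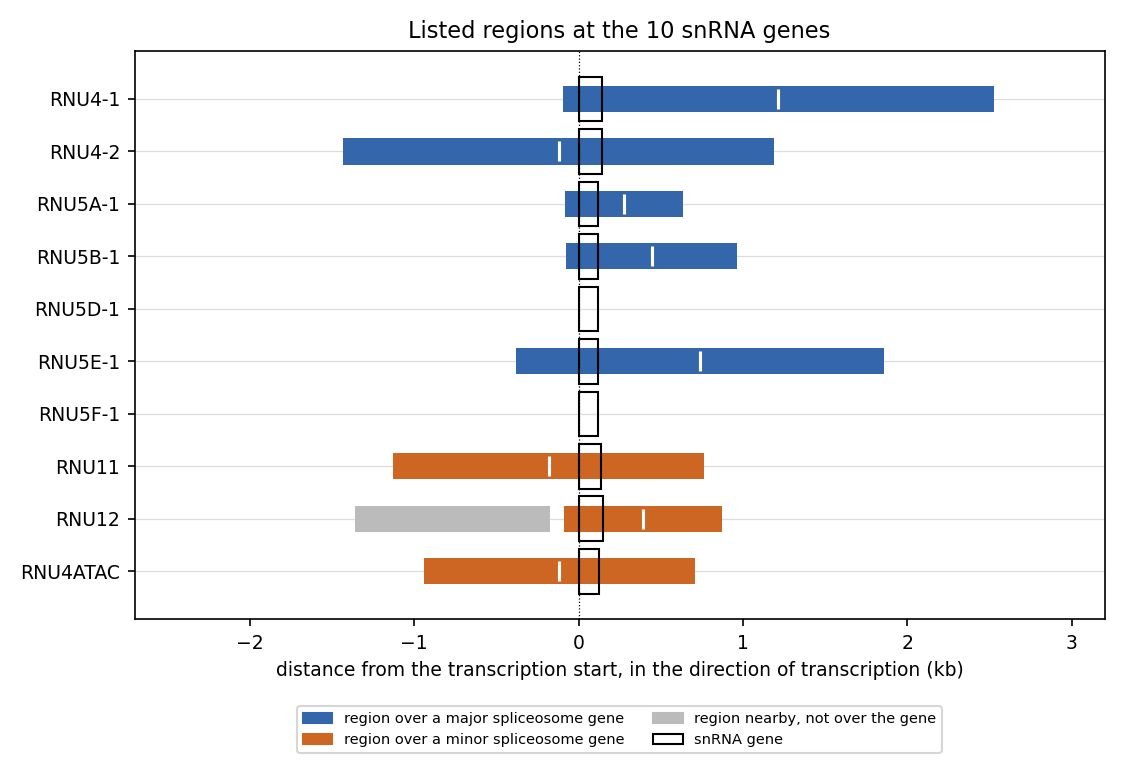
Listed regions (bars) at the 10 snRNA genes, by distance from the transcription start in kb, in the direction of transcription; black boxes are the genes, white ticks the region midpoints and the grey bar a region that did not overlap the gene. The bars of RNU4-1 and RNU4-2 are the same region, RNU5D-1 and RNU5F-1 have none, and the bars of RNU4-1, RNU5A-1, RNU5B-1 and RNU12 begin 75 to 96 bp before the start.

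Regions were then compared between the spliceosomes. In the major spliceosome 5 of 7 genes had a region (71.4%), against 3 of 3 in the minor one (100%). The major genes had 4 distinct regions of 722 to 2622 bp (median 1638.5 bp), and the minor genes had 3 of 966 to 1893 bp (median 1652 bp). The widths overlapped, with the minor range inside the major one. The absolute offset of midpoint from gene ranged from 189.5 to 1144.5 bp (median 387.5 bp) at the major genes and from 179.5 to 318 bp (median 247.5 bp) at the minor genes. With 3 minor genes and no test, no difference is read from these values. Both genes without a region were U5 genes, which serve both spliceosomes.

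Paired and single loci were compared next, a pair being members within 20 kb of each other. Of the 6 paired genes 4 had a region (66.7%), and of the 4 single genes 4 did (100%). The order turned when a pair had to lie within 5 kb, with 2 of 2 paired genes against 6 of 8 single ones. It did not turn when a copy of the same family within 20 kb also counted, with 5 of 7 against 3 of 3. RNU5E-1, near its copy RNU5E-4P, then counted as paired. The 3 pairs differed in form. The U4 pair shared 1 region, RNU5A-1 and RNU5B-1 had 1 region each, and RNU5D-1 and RNU5F-1 had none. The status of both genes of a pair was therefore the same in each of the pairs. The 3 regions at paired loci measured 722, 1041 and 2622 bp, and the 4 at single loci measured 966 to 2236 bp (median 1772.5 bp), so the ranges overlapped. Offsets overlapped as well, with medians of 303.75 bp (189.5 to 1144.5) at paired and 282.75 bp (179.5 to 678) at single loci.

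The 8 of 10 genes with a region (80%) stood beside 1.11% of all annotated genes. Short genes are covered less easily, and 0.45% of the 10003 genes of at most 300 bp had a region. Among the other 1891 genes annotated as snRNA, most of which are pseudogene copies, 9 had a region (0.476%). These were RNU5E-4P, RNU1-2, RNVU1-29, RNU2-2P, a U2 gene on chromosome 17, RNU7-1, RN7SK, RNU6-2 and RNU6-8. Since the members were chosen with these regions known, nothing is read from the gap.

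Pseudogene copies provide a comparison within the same families. Of 137 copies of U4, U5, U11, U12 and U4atac whose symbols mark them as pseudogenes, 1 (0.73%) had a region. This was RNU5E-4P, under the region of RNU5E-1. None of the 88 U4 copies, 17 U4atac copies, 5 U11 copies or 1 U12 copy had one. RNU5D-1 and RNU5F-1 do not carry such a symbol and likewise had none.

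Other snRNA genes were placed beside the members. These were 4 U1 genes, 2 U2 genes, RNU7-1, whose RNA processes histone pre-mRNA, and RNU6ATAC, the partner of U4atac, which is transcribed by RNA polymerase III. Of these 8 genes 3 had a region (37.5%), namely RNU1-2, RNU2-2P and RNU7-1. RNU6ATAC had none, the nearest region being 28598 bp away. Genes transcribed by RNA polymerase III were not absent from the list, since RN7SK, RNU6-2 and RNU6-8, named after their values were seen, had a region. The region over RNU2-2P was 3017 bp wide, wider than any over the members. No 31-base word of the 4 U1 genes or of RNU2-1 occurred only once in the genome, and the filter on mapping quality drops reads that align equally well elsewhere. RNU1-2, among these U1 genes, had a region, which began inside the gene and reached 959 bp past its end. Words were not counted in that flank. Words found once made up 10.6% of RNU2-2P and 60.6% of RNU7-1, which had a region, and 15.6% of RNU6ATAC, which had none. Whether sequence copies had a part in the lower count was not tested.

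**Figure D2:**
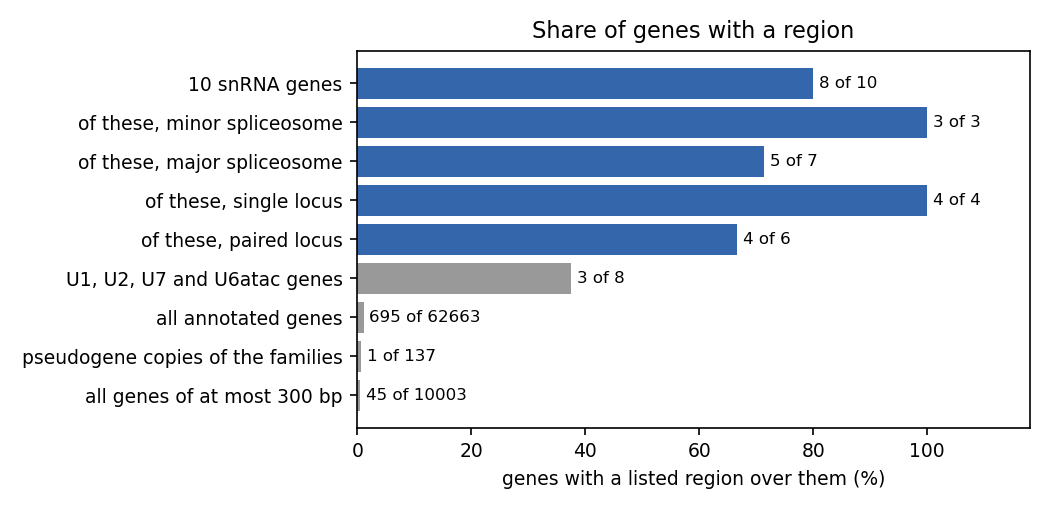
Share of genes with a listed region over them, in percent, for the 10 snRNA genes and their groups (blue) and for comparison genes (grey), with counts beside the bars. The 10 genes were chosen with the regions known; all annotated genes stand at 1.11% and those of at most 300 bp at 0.45%.

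The 7 distinct regions over the members had a median width of 1652 bp (722 to 2622), and the other 555 regions had a median of 1008 bp. Of the 7, 5 were wider than that median. So were those over the snRNA genes RNU2-2P, RNU1-2 and RNU7-1 outside the members, at 3017, 1057 and 1264 bp. RNU4-1 and RNU4-2, RNU5E-1, RNU11 and RNU4ATAC had regions ranked 17th, 30th, 59th and 94th. Those of RNU5B-1, RNU12 and RNU5A-1 ranked 271st, 301st and 403rd. The wide regions covered a second snRNA gene or copy, or a protein-coding start. They held both U4 genes, RNU5E-1 with RNU5E-4P, RNU11 with the TAF12 start, and RNU4ATAC with the internal CLASP1 start. The narrower ones over RNU5A-1, RNU5B-1 and RNU12 covered a single snRNA gene and no protein-coding start. They were not all free of other genes, as that of RNU5A-1 lay within PARP16. That of RNU12 lay within an unnamed protein-coding gene and also took in a lncRNA gene and the 3′ end of CYB5R3.

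**Figure D3:**
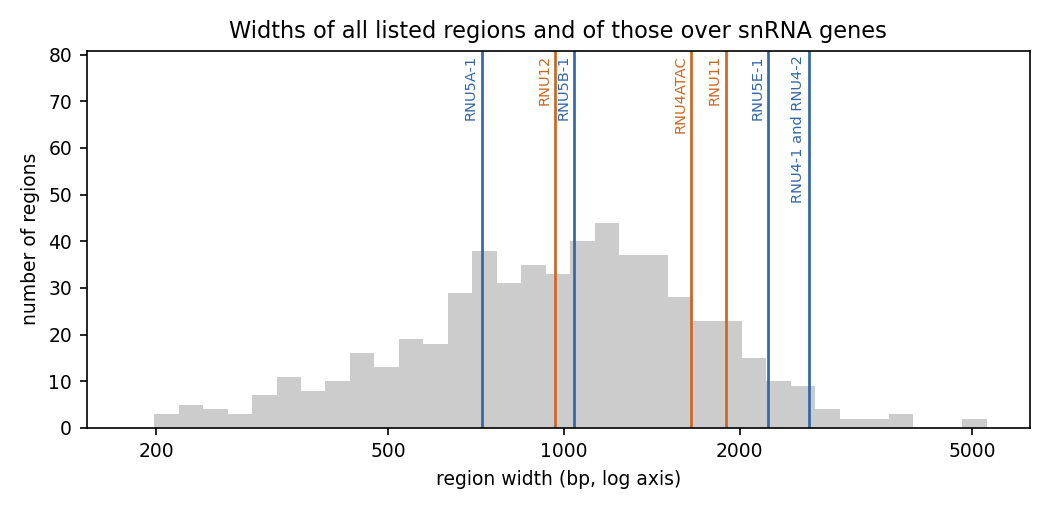
Histogram of the widths of all 562 listed regions (grey; log axis, bp), with lines at the 7 regions over snRNA genes (blue, major spliceosome; orange, minor spliceosome). The 7 range from 722 to 2622 bp, and 5 lie above the median of the other regions, 1008 bp.

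Next, the position of the region against the gene was examined. Each of the 8 genes was covered whole. The midpoint lay downstream of the gene midpoint at 5 genes and upstream at 3, namely RNU4-2, RNU11 and RNU4ATAC. The median absolute offset was 282.75 bp (179.5 to 1144.5), or 0.608 of the half-width. Regions thus covered the genes without being centred on them. Sequence past the 3′ end of the gene was covered for 523 bp at RNU5A-1 to 2385 bp at RNU4-1 (median 788 bp).

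Upstream edges were alike at several genes. The region began 75 bp before the start at RNU5B-1, 83 bp at RNU5A-1, 90 bp at RNU12 and 96 bp at RNU4-1, and it ended 80 bp before RNU5E-4P. Counted by gene, 4 of the 8 members with a region had under 100 bp of it upstream, a limit set after these values were seen. The reach was 380 bp at RNU5E-1 and 1430 bp at RNU4-2, and the median over the 8 was 238 bp. The regions of RNU11 and RNU4ATAC, which contained one, reached 1127 and 942 bp upstream. Counted in the same way, regions contained 344 canonical protein-coding starts, and 15 of these (4.36%) had an upstream edge under 100 bp away. The median reach there was 508.5 bp upstream and 545 bp downstream of the start. Among the other snRNA genes with a region, the edge was 62 bp before the start at RNU7-1 and 1224 bp before it at RNU2-2P, and at RNU1-2 the region began inside the gene. How the authors set region edges beyond the SEACR caller was not given in the sources used here.

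The distal octamer was searched as ATGCAAAT or its reverse complement ATTTGCAT, on both strands, from 250 bases before to 50 bases after the start. It was found at 7 of the 10 genes, 203 to 229 bases before the start. The stretches around it at these 7 genes are shown in the direction of transcription, with the octamer in capitals and 12 bases on each side.
RNU4-2, chr12:120292113-120292144: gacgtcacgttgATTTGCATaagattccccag
RNU5A-1, chr15:65295836-65295867: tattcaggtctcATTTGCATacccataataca
RNU5B-1, chr15:65304453-65304484: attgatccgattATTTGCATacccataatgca
RNU5E-1, chr1:11907920-11907951: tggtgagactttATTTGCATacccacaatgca
RNU5F-1, chr1:44722110-44722141: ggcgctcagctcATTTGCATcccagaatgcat
RNU11, chr1:28648369-28648400: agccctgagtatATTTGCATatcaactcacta
RNU4ATAC, chr2:121530640-121530671: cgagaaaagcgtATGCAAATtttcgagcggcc

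The letters read ATTTGCAT at 6 genes and ATGCAAAT at RNU4ATAC. Of 35116 promoters of the same length in the RefSeq table, 1.77% held the octamer anywhere and 0.353% held it 190 to 240 bases before the start. It was not particular to the members. Counted from the start, its first base was at -206 at RNU7-1, -221 at RNU2-1 and -222 at the copy RNU5E-4P. RNU2-1 had no region. The U1 genes, RNU2-2P and RNU6ATAC had no match. The octamer was found at 6 of the 8 genes with a region and at RNU5F-1, which had none. It lay inside the region at RNU4-2, RNU5E-1, RNU11 and RNU4ATAC, and outside it at RNU5A-1 and RNU5B-1, where the region began closer to the start. The exact letters were not in the window of RNU4-1, RNU5D-1 or RNU12, which does not speak to binding there. The ZNF143 core ACTACAA, on both strands, was in none of the 10 windows and in 2.77% of the table's promoters. A coarse form of the proximal element (ACC, 3 bases, A, 2 bases, TG, 30 to 80 bases before the start, in the direction of transcription) matched only RNU11 among the members and 0.669% of the promoters. A missing match to this coarse pattern does not show that a gene lacks the element.

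The regions over the members had a median GC content of 48.9% (41.3 to 57.0), and the other regions had a median of 60.4%. All 7 lay below that median, from RNU5A-1 at 41.3% to RNU4ATAC at 57.0%. GC skew, (G-C)/(G+C), over the 500 bases from the start on the coding strand ranged from 0.0077 at RNU12, close to no skew, to 0.224 at RNU11. RNU5D-1 at 0.206 and RNU5F-1 at 0.0854 lay inside that range. The skew was not measured at other genes.

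Sequence copies were measured because reads with several equally good placements get low mapping qualities and were filtered out. Of the 31-base words of a gene, 39.5% at RNU5B-1, 47.7% at RNU4-1 and 55.8% at RNU5D-1 occurred once in the genome. The share was 60.4% at RNU4-2, 60.5% at RNU5A-1, 61.1% at RNU5E-1 and 87.4% at RNU5F-1. It was 87.5% at RNU11, 90.8% at RNU12 and 100% at RNU4ATAC. The 250 bp before the start held 99.1% unique words at RNU5E-1 and 100% at the other 9 genes. RNU5D-1 and RNU5F-1 thus lay within the range of the genes with a region, both in the gene and before it. The words are shorter than the paired reads described in the methods, so these shares do not measure how the reads themselves mapped. With 250 bp on each side of the gene, the share was 86.3% at RNU4-1 to 99.7% at RNU4ATAC. It was 93.3% at RNU5D-1 and 95.4% at RNU5F-1. Over the whole regions the share was 82.5 to 90.0%.

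**Figure D4:**
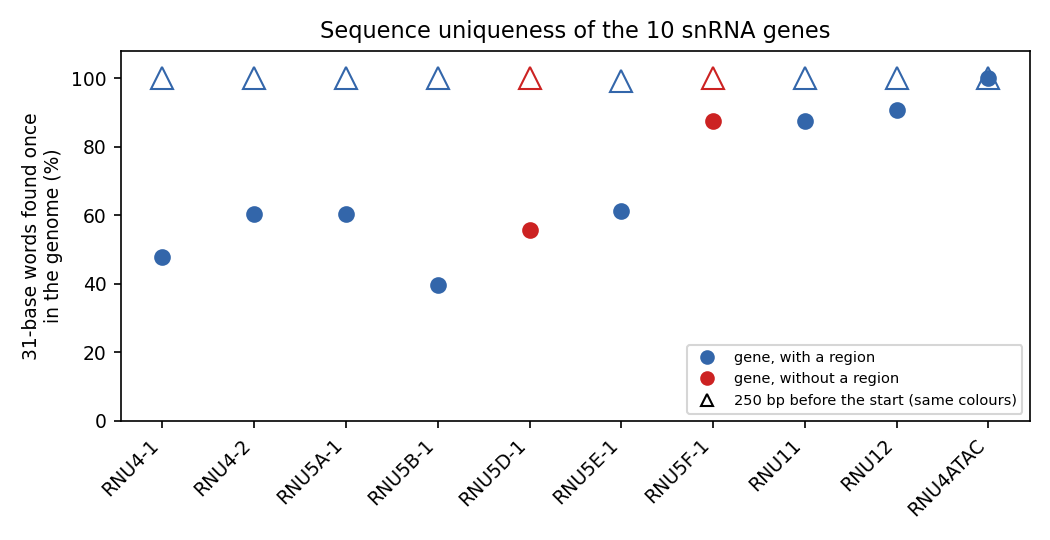
Share of 31-base words that occur once in the genome, in percent, in each snRNA gene (circles) and in the 250 bp before its start (triangles), for genes with a region (blue) and without (red). The genes range from 39.5% to 100%, RNU5D-1 and RNU5F-1 fall inside that range, and the upstream stretches are at 99.1% or above.

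The proteins of these particles were examined in the same list. A set of 68 protein-coding genes held the proteins of the U4/U6, U5 and U11/U12 particles, the Sm ring, the SNAPc and Integrator complexes, and factors of snRNA export and assembly. It also held the transcription factor genes POU2F1, ZNF143, TBP, ICE1, ICE2, ELL and ZC3H8. A region midpoint within 3 kb of a start was found at 0 of the 68, against 2.19% of all protein-coding genes. For a set of 68 genes a count of 0 is near that share, so nothing is read from it. PRPF8, SNRNP200 and EFTUD2, which hold U5 at the core of the spliceosome, PRPF31, which binds U4, and RNPC3, which bridges U11 and U12, were all without a region. So were SNAPC1 to SNAPC5, whose complex binds the proximal element, and SMN1, which loads the Sm ring.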

How the data were processed

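R-loop CUT&Tag libraries of shCtrl and shA3B OMM2.3 cells were compared by the authors, 1 library each, with groups taken from the sample titles. According to the methods and the submitters' processing notes, adapters were removed with Cutadapt 4.1, read pairs aligned to GRCh38 with Bowtie2 2.2.5, duplicates removed with Picard 2.27.3, low mapping qualities filtered with Samtools 1.15.1, peaks called with SEACR 1.3 and differential peaks taken from edgeR by the authors. The settings of that comparison are not given in the sources used here. The deposited list holds chromosome, start and end; starts were made 1-based.

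Genes came from GENCODE 44, chromosomes 1 to 22, X and Y. A gene had a region when they shared any base. Midpoints, offsets, overlaps and 31-base words were computed in Python 3.11.15 with numpy 2.4.6, pandas 2.3.3 and numba 0.67.0, and the U4 genes aligned with biopython 1.88. The overlap function was tested on simulated regions. None of the 10 genes was in the RefSeq promoter table, so their sequences were read from GRCh38 by position. The U5 gene sequences are not reported here.

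The genes and lists were chosen with earlier results of these data known. Named genes were the members, their nearest protein-coding starts, other snRNA genes, copies with a region, and genes of a set of 68 proteins. That last part named those with a region; as there were none, examples were picked afterwards by role. No test was run.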

Additional observations from a re-analysis of the deposited data

How the results depend on the processing

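For 10 results, 37 alternative values were computed. In 34 cases the value kept to the limits used (1.5 times a count, or the 95% rank interval of a median) and 3 moved. With so few regions that interval was their full range, 722 to 2622 bp for width and 179.5 to 1144.5 bp for offset. A recomputed median could therefore hardly leave it. The number of major spliceosome genes with a region was 2 when the U5 genes were left out, since those 2 are the U4 genes. The number of paired genes with a region was 2 of 2 when a pair had to lie within 5 kb, since the U4 genes alone then count as a pair. Single genes were then 6 of 8, so the paired share became the higher one. With copies of the same family within 20 kb counted, it was the lower one, at 5 of 7 against 3 of 3. All annotated genes with a region numbered 424 with the wider 50% of the regions, which holds fewer regions by construction. A reach of 1 kb and merging can only keep or raise a count of genes with a region. The count of 8 members stayed at 8 with whole-gene cover, with a reach of 1 kb and with regions merged within 1 kb. It was 6 with the midpoint within 500 bp of the gene, 6 in the wider 50% of the regions, where RNU5A-1 and RNU12 drop out, and 6 among regions without a protein-coding start, where RNU11 and RNU4ATAC drop out. The last of these, and the use of RefSeq gene ends, were chosen after seeing the data. The median width ranged from 1418.5 to 1893 bp and the median offset from 282 to 335 bp. No paired analysis was possible because the shA3B and shCtrl arms hold 1 library apiece, which also leaves no replicate to omit. Without scores, a stricter threshold could not be tried.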

Other observations

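The regions over the snRNA genes stood at different places in the order of the lines, which is not documented. The region of RNU4ATAC was line 6 of 562, that of RNU12 line 28, that of RNU4-1 and RNU4-2 line 45 and that of RNU11 line 58. The regions of RNU5B-1, RNU5E-1 and RNU5A-1 were lines 183, 195 and 436. Thus 4 of the 7 stood among the first 100 of the 562 lines, and 6 among the first 200. As the meaning of the order is unknown, nothing is read from it.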
